A study of Mus musculus with 9 samples.

Results

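Hoxa3, Hoxa5, Hoxa7, Hoxa9, Hoxa10, Hoxb4, Meis1, Hlf and Mecom are 9 transcription factor genes known from hematopoietic stem and progenitor cells. They were taken by symbol, with every probe set that the platform annotation assigns to them, which gave 21 probe sets for 9 of the 18193 genes measured. The starting cells were LSK cells, the Lineage- Sca-1+ c-Kit+ fraction of bone marrow, purified from wild-type C57/Bl6 mice. They were kept for 3 days on layers of OP9, a mouse bone marrow stromal line, and only the non-adherent cells were collected. All groups therefore share genotype, culture time and an OP9 feeder, and they differ in the feeder's ligand and in an inhibitor. OP9-GFP is the control feeder, OP9-DL1 carries the Notch ligand Delta-like 1, and the remaining cultures combined OP9-DL1 with 1 µM Compound E, which blocks γ-secretase. Each of these 3 groups had 3 arrays. Nothing in the labels tells whether a group's arrays stem from separate animals or cultures. The p-values are therefore relative to the spread among these arrays, part or all of which may be technical. The comparisons ask what the ligand feeder changes and what changes again when cleavage of Notch receptors is inhibited. No culture combined OP9-GFP with Compound E, so effects of the compound that do not depend on the ligand cannot be told apart.

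Hox genes encode homeodomain proteins and lie in clusters. In blood cells the genes of the Hoxa and Hoxb clusters are most active in stem and early progenitor cells and are turned down as cells mature. Meis1 belongs to the TALE homeodomain family and binds DNA together with Hox and Pbx proteins. Hlf is a PAR-type basic leucine zipper factor and Mecom a PR-domain zinc finger factor, and both are known for maintaining stem cells. Notch receptors act through the DNA-binding protein RBPJ once γ-secretase has released their intracellular part.

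Values are deposited log2 values, so a difference of 1 is a 2-fold change, and levels are compared only within a probe set. Where a gene had several probe sets, it was counted by the brightest over all 9 arrays, its lead probe set. Differences were tested with limma over all probe sets, p-values were adjusted by Benjamini-Hochberg, and called means an adjusted p under 0.05. The highest value among 27 bacterial control probe sets was 3.64, and a group mean at or under it is described as at background. The 9 lead probe sets were above it in all groups.

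On OP9-DL1 against OP9-GFP, Meis1, Hlf and Mecom rose and Hoxa9 and Hoxb4 fell, while Hoxa3, Hoxa5, Hoxa7 and Hoxa10 were not called. That is 3 of 9 members higher, where 15.1% of all genes were called higher, and 2 lower, where 16.0% were. When Compound E was added to OP9-DL1 cultures, 5 members fell relative to OP9-DL1 alone, against 21.0% of all genes. They were Meis1, Hlf, Mecom, Hoxa9 and Hoxa10. Hoxb4 alone of the 9 rose, where 23.8% of all genes were called higher. Compound E on OP9-DL1 against OP9-GFP left Meis1, Hlf, Mecom and Hoxa9 lower, 4 members where 10.0% of all genes were called lower. No member was called higher there by limma (1 at an unadjusted p under 0.05, Hoxb4), where 11.3% of all genes were. The first and second comparison share the OP9-DL1 arrays, and the third shares arrays with both. The median difference over the 9 members was 0.12, -0.45 and -0.37 in these comparisons, beside -0.02, 0.08 and 0.05 over all genes.

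**Figure D1:**
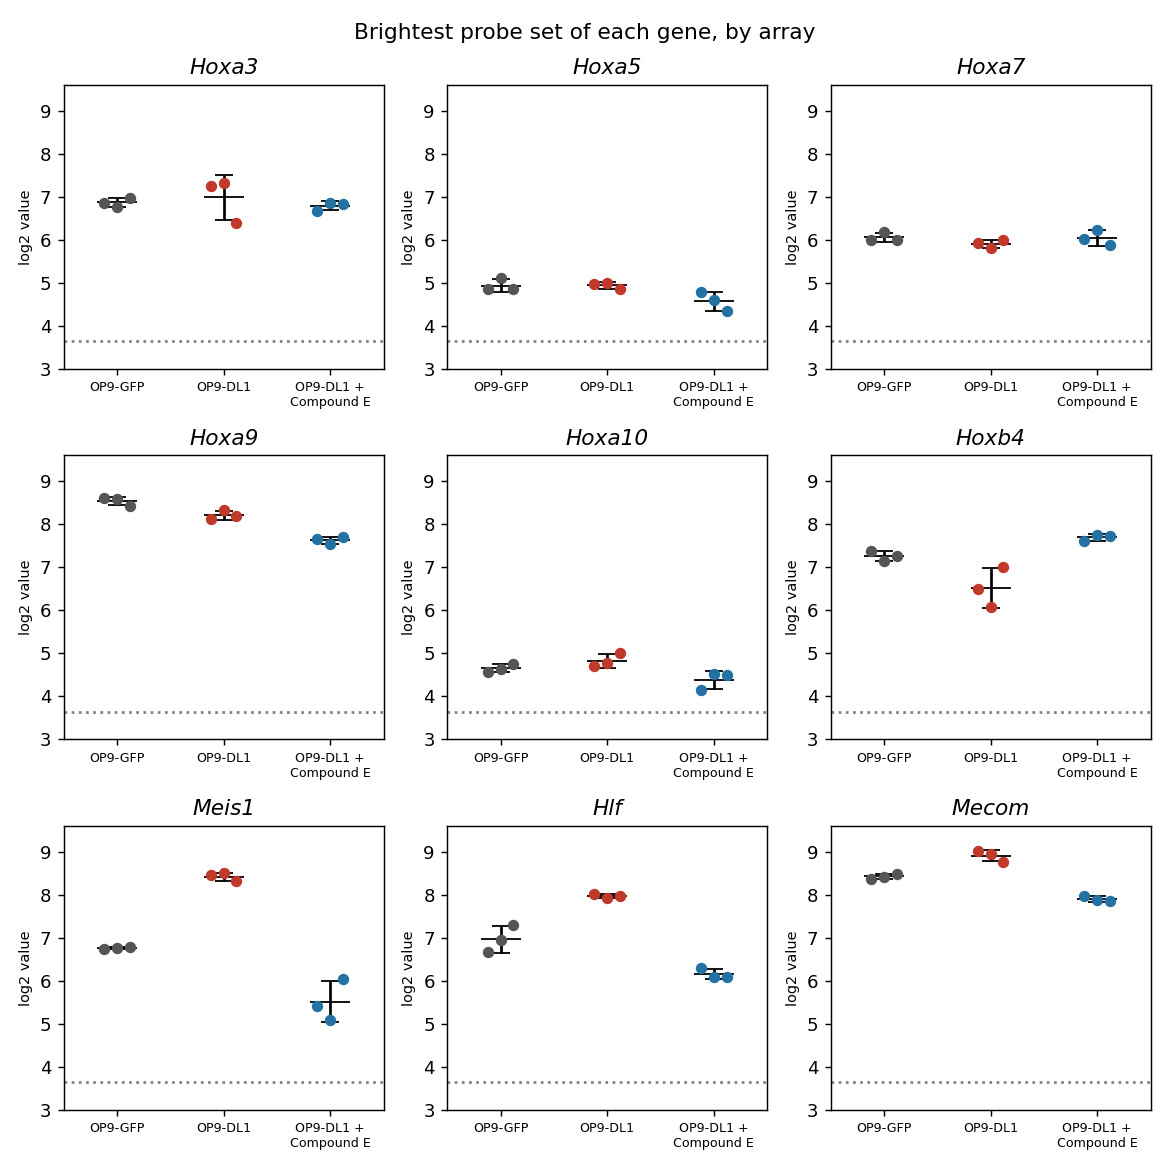
Deposited log2 values of the lead probe set of each of the 9 genes (y axis) on every array, by feeder and inhibitor group (x axis). Points are single arrays, black bars the mean ± SD of 3 arrays, and the dotted line is the highest bacterial control value, 3.64. Meis1 is highest on OP9-DL1 and lowest with Compound E, and Hoxb4 is lowest on OP9-DL1.

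The stretches of 250 bases before the start sites of Meis1, Hlf, Mecom, Hoxa9 and Hoxb4 are shown because these genes moved on the ligand feeder, the first 3 in one direction and the others in the opposite one. They come from the RefSeq promoter table of the mouse assembly GRCm38.p6, in which all 9 members matched, and read 5′ to 3′ on the gene's strand. Capitals mark the letters TGGGAA, the core of the RBPJ motif, searched on both strands, so that a match on the opposite strand appears as TTCCCA. Mecom has 2 starts in the table. The Meis1 stretch is chr11:19018970-19019219 (minus strand), that of Hlf chr11:90390918-90391167 (minus), that of Hoxa9 chr6:52227371-52227620 (minus) and that of Hoxb4 chr11:96318017-96318266 (plus). Those of Mecom are chr3:30509760-30510009 and chr3:30013205-30013454 (both minus).
Meis1: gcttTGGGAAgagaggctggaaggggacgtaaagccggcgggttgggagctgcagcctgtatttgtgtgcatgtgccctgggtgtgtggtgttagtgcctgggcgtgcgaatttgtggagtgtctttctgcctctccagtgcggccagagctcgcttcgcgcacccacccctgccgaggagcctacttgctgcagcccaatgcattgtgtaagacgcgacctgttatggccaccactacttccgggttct
Hlf: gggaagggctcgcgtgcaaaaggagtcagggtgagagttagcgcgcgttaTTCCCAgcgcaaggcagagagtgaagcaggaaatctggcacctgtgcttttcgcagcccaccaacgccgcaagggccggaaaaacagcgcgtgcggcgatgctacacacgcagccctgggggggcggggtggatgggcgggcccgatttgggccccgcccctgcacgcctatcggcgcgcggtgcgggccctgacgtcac
Mecom, upstream start: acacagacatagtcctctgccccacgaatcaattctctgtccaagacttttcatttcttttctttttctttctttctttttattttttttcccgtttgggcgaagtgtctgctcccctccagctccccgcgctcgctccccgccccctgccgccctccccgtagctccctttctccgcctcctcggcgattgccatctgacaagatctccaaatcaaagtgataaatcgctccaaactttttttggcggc
Mecom, downstream start: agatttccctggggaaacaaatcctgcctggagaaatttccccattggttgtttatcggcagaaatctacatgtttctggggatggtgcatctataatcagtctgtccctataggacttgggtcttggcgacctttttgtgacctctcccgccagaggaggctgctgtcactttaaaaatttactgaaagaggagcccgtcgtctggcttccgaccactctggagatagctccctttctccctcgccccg
Hoxa9: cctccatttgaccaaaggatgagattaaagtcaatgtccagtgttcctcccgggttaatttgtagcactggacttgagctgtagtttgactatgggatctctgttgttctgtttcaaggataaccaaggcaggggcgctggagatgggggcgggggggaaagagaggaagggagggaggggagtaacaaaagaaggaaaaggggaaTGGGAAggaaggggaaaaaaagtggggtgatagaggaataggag
Hoxb4: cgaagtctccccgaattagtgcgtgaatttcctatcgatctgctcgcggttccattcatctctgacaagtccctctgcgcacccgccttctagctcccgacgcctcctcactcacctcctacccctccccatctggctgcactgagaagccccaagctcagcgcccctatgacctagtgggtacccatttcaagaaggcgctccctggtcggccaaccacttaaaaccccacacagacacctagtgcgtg

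The RBPJ core occurred once each before Meis1, Hlf and Hoxa9. Its first base in gene direction lay 246 bases before the start of Meis1 and 44 before that of Hoxa9, and the Hlf match was on the opposite strand, 200 bases before the start. These letters were found in 21.6% of the 32851 promoters of the table over the same 250 bases, and they are not in the windows shown for Mecom and Hoxb4. The letters TGACAG, bound by Meis proteins, occurred on the opposite strand before the downstream Mecom start (86 bases) and before Hoxa3 (13 bases), against 15.9% of all promoters. The GATA letters AGATAA, in 10.0% of promoters, were in none of the members' windows. None of these 3 motifs overlaps another by its letters in these windows, and a match of letters describes the sequence, not binding.

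Meis1, the TALE partner of Hoxa9, had the largest differences of the 9 members on its lead probe set in each comparison. Its log2 values were 6.74, 6.75 and 6.78 on OP9-GFP, 8.45, 8.50 and 8.32 on OP9-DL1, then 5.41, 5.09 and 6.03 with Compound E. The 3 groups did not overlap, and the arrays with Compound E were the most spread. Meis1 was 3.17-fold higher on OP9-DL1 than on OP9-GFP (log2 difference 1.66 ± 0.17 SE, n = 3 per group, limma adjusted p = 1.45e-06). With Compound E it was 7.52-fold lower than on OP9-DL1 (-2.91 ± 0.17, adjusted p = 1.26e-09). It also lay 2.37-fold under OP9-GFP (-1.25 ± 0.17, adjusted p = 9.45e-05).

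The other Meis1 probe sets ran the same way. Probe set 1450992_a_at was 5.17, 5.39 and 5.46 on OP9-GFP, 6.60, 6.61 and 6.51 on OP9-DL1, then 4.83, 4.65 and 5.09 with Compound E. Probe set 1459423_at read 5.32, 5.34 and 5.36, then 6.74, 6.87 and 6.995, then 4.41, 3.91 and 4.91 in the same order. Both were highest on OP9-DL1 and lowest with Compound E, with no overlap between groups. Their differences were 1.23 and 1.52 on OP9-DL1 against OP9-GFP, and -1.71 and -2.46 with Compound E against OP9-DL1, all called. Against OP9-GFP they were -0.48 (limma adjusted p = 0.0258) and -0.93 (adjusted p = 0.00288) with Compound E, and the first of these was not called under 8 of the alternatives, with adjusted p up to 0.0972. They include leaving out OP9-GFP replicate 2 or 3 or Compound E replicate 1 or 2.

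Hlf, the PAR-type factor, followed the order of Meis1 with smaller steps. Its lead values were 6.66, 6.94 and 7.29 on OP9-GFP, 8.02, 7.93 and 7.97 on OP9-DL1, then 6.30, 6.10 and 6.08 with Compound E. The groups did not overlap, and the spread was widest on OP9-GFP. Hlf was 2.01-fold higher on OP9-DL1 than on OP9-GFP (1.01 ± 0.13, limma adjusted p = 2.41e-05) and 3.51-fold lower with Compound E than on OP9-DL1 (-1.81 ± 0.13, adjusted p = 2e-08). Against OP9-GFP it was 1.75-fold lower with Compound E (-0.80 ± 0.13, limma adjusted p = 0.000527).

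A further Hlf probe set, 1434735_at, was 5.44, 5.44 and 5.24 on OP9-GFP, 5.98, 6.07 and 6.004 on OP9-DL1, then 5.17, 4.78 and 4.83 with Compound E. Its groups did not overlap and kept the order of the lead probe set. It rose by 0.64 on OP9-DL1 (limma adjusted p = 0.00222) and fell by 1.09 with Compound E (adjusted p = 9.44e-06). Its difference of -0.45 against OP9-GFP (adjusted p = 0.0332) was not called under 8 of the alternatives, with adjusted p up to 0.112. They include leaving out OP9-GFP replicate 1 or 2 or Compound E replicate 2 or 3.

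Mecom, whose products include the Evi1 protein, moved in the same directions by smaller amounts. Its lead values were 8.37, 8.42 and 8.49 on OP9-GFP, 9.01, 8.95 and 8.77 on OP9-DL1, then 7.97, 7.87 and 7.85 with Compound E. Again no groups overlapped. Mecom was 1.40-fold higher on OP9-DL1 than on OP9-GFP (0.48 ± 0.08, limma adjusted p = 0.000212) and 2.01-fold lower with Compound E than on OP9-DL1 (-1.01 ± 0.08, adjusted p = 4.47e-08). It was 1.44-fold lower with Compound E than on OP9-GFP (-0.53 ± 0.08, adjusted p = 0.000238). The other 2 Mecom probe sets were at background in all groups and carry no measure of a change. Averaged over all 3 probe sets, the differences shrank to 0.15 (adjusted p = 0.222) and -0.20 (adjusted p = 0.102) against OP9-GFP, not called, while the fall with Compound E against OP9-DL1 remained called at -0.35 (adjusted p = 0.00379).

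Hoxa9, the Hoxa cluster gene best known from leukemia, descended through the groups instead of peaking on OP9-DL1. Its lead values were 8.61, 8.58 and 8.43 on OP9-GFP, 8.12, 8.32 and 8.18 on OP9-DL1, then 7.66, 7.53 and 7.69 with Compound E. Each group lay under the one before with no overlap. The step from OP9-GFP to OP9-DL1 was 1.26-fold (-0.34 ± 0.08, limma adjusted p = 0.00701), and that from OP9-DL1 to Compound E 1.49-fold (-0.58 ± 0.08, adjusted p = 4.04e-05). From OP9-GFP to Compound E the fall came to 1.89-fold (-0.92 ± 0.08, adjusted p = 2.26e-06).

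The dimmer Hoxa9 probe set 1421579_at did not show this descent. It was 6.14, 6.05 and 6.29 on OP9-GFP, 6.04, 5.56 and 5.90 on OP9-DL1, then 6.04, 5.78 and 5.93 with Compound E. The OP9-GFP arrays lay above the others by a narrow margin, and the other groups overlapped. None of its differences was called, and that between Compound E and OP9-DL1 was 0.08 with a 95% interval of -0.21 to 0.38, which leaves out the lead probe set's -0.58. The Hoxa9 calls were thus made on 1 of 2 probe sets.

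Hoxb4, known for expanding stem cells when supplied in excess, moved opposite to Meis1. Its lead values were 7.37, 7.15 and 7.27 on OP9-GFP, 6.49, 6.08 and 7.01 on OP9-DL1, then 7.60, 7.75 and 7.74 with Compound E. The groups did not overlap, although replicate 3 on OP9-DL1 lay near the control arrays. Hoxb4 was 1.67-fold lower on OP9-DL1 than on OP9-GFP (-0.74 ± 0.17, limma adjusted p = 0.00349) and 2.25-fold higher with Compound E than on OP9-DL1 (1.17 ± 0.17, adjusted p = 3.48e-05). Compound E against OP9-GFP gave 0.43 ± 0.17, which was not called (adjusted p = 0.0884). It was called without OP9-DL1 replicate 2 (adjusted p = 0.0292) or replicate 3 (adjusted p = 0.0191), arrays that enter this comparison only through the shared estimate of spread. A further probe set, 1451761_at, ranged from 3.62 to 4.16 over the 9 arrays and had differences of -0.33, 0.25 and -0.08, none called.

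**Figure D2:**
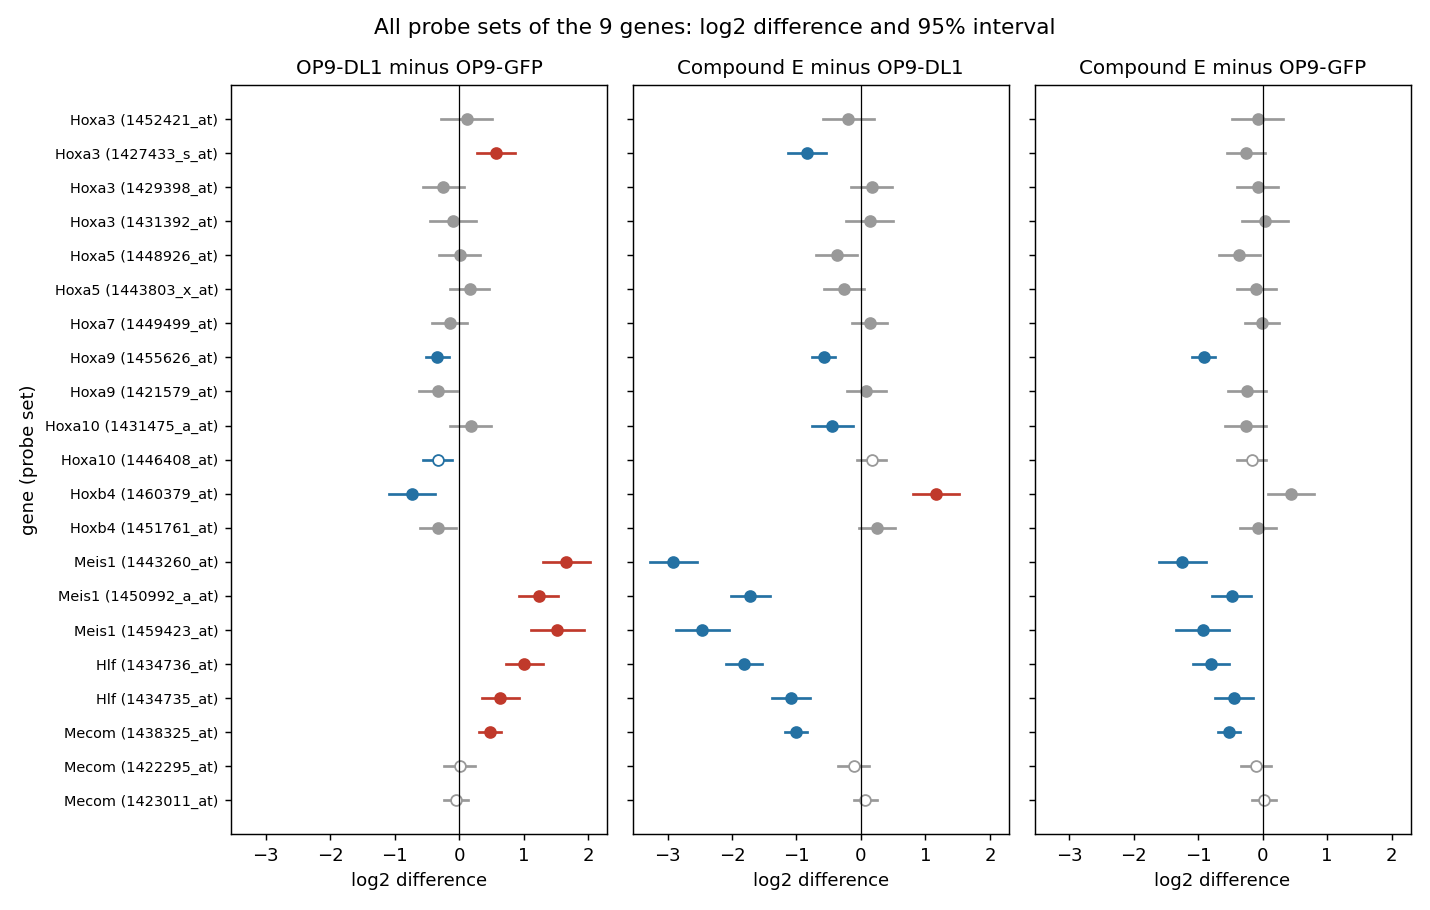
Log2 differences (x axis) of each of the 21 member probe sets (y axis) in the 3 comparisons, with 95% intervals from limma. Red marks probe sets called higher, blue called lower and grey not called, and open symbols are at background in all groups. All 3 Meis1 and both Hlf probe sets lie to the right on OP9-DL1 and to the left with Compound E, while those of Hoxa3 and Hoxa10 lie on both sides of 0 on OP9-DL1 and with Compound E.

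Hoxa3 gave different answers from its probe sets. The lead read 6.86, 6.76 and 6.98 on OP9-GFP, 7.25, 7.32 and 6.39 on OP9-DL1, then 6.67, 6.86 and 6.84 with Compound E. Replicate 3 was the lowest of all 9 arrays and replicates 1 and 2 of the same group the highest, so the groups overlapped. Its differences of 0.12 on OP9-DL1 (limma adjusted p = 0.747) and -0.19 with Compound E (adjusted p = 0.432) were not called. Without OP9-DL1 replicate 3 they became 0.42 (adjusted p = 0.0168) and -0.49 (adjusted p = 0.0037).

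The second Hoxa3 probe set, 1427433_s_at, was 6.37, 5.86 and 6.26 on OP9-GFP, 6.71, 6.59 and 6.91 on OP9-DL1, then 5.92, 5.92 and 5.86 with Compound E. Here OP9-DL1 replicate 3 was the highest array, and OP9-DL1 overlapped neither other group. The probe set was 0.57 higher on OP9-DL1 (limma adjusted p = 0.00522) and 0.83 lower with Compound E than on OP9-DL1 (log2 -0.83, adjusted p = 0.000141). The other 2 Hoxa3 probe sets ranged from 3.24 to 3.79 and from 3.30 to 4.12 over the 9 arrays, near background, and were not called.

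Hoxa5, Hoxa7 and Hoxa10 lie in the same cluster as Hoxa3 and Hoxa9. Hoxa5 was 4.85, 5.10 and 4.85 on OP9-GFP, 4.98, 4.998 and 4.85 on OP9-DL1, then 4.78, 4.59 and 4.33 with Compound E. The arrays with Compound E were the lowest, but the difference from OP9-DL1 was not called (-0.37, limma adjusted p = 0.0594, called under 5 of the alternatives, among them without Compound E replicate 1 at adjusted p = 0.0262). The feeders themselves overlapped (0.01, adjusted p = 0.985). The second Hoxa5 probe set ranged from 3.89 to 4.51 over the 9 arrays and was not called in any comparison. Hoxa7, measured by 1 probe set, was 5.99, 6.18 and 5.99 on OP9-GFP, 5.92, 5.81 and 5.99 on OP9-DL1, then 6.01, 6.24 and 5.88 with Compound E. All its groups overlapped, with differences of -0.15, 0.13 and -0.01, and the last had a 95% interval of -0.28 to 0.26.

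Hoxa10 was dim, at 4.58, 4.63 and 4.75 on OP9-GFP, 4.71, 4.77 and 5.02 on OP9-DL1, then 4.15, 4.51 and 4.49 with Compound E. The OP9-DL1 and Compound E arrays did not overlap. It fell 1.36-fold with Compound E against OP9-DL1 (-0.45 ± 0.15, limma adjusted p = 0.0264). That call was lost after centring the arrays (adjusted p = 0.0914), after quantile normalization (adjusted p = 0.0889), without OP9-DL1 replicate 3 (adjusted p = 0.114) and without Compound E replicate 1 (adjusted p = 0.106). It was also lost with the mean of both Hoxa10 probe sets, -0.14 (adjusted p = 0.234), a mean that includes a probe set at background in all groups, whose own call on OP9-DL1 (-0.34) is no measure of a change.

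The other genes of the Hox clusters were mostly dim in these cultures. Of 9 measured Hoxa genes 3 were at background in all groups, of 9 Hoxb genes 7, and of 15 Hoxc and Hoxd genes 12. Of all 18193 genes 4744 were. The Hoxa and Hoxb counts include the members, which were above background. Among the Hoxa genes limma called 0 higher (1 at an unadjusted p under 0.05) and 2 lower on OP9-DL1 against OP9-GFP. The 2 were Hoxa9 and Hoxa4, and the Hoxa4 difference of -0.45 (adjusted p = 0.0272) was lost when any of 5 arrays was left out, namely OP9-GFP replicate 1 or 2 or any OP9-DL1 array. For this list and those that follow, the shares of all genes were 15.1% higher and 16.0% lower on OP9-DL1 against OP9-GFP. They were 23.8% higher and 21.0% lower with Compound E against OP9-DL1. With Compound E against OP9-DL1 the Hoxa genes gave 0 higher (0 at an unadjusted p under 0.05) and 2 lower, Hoxa9 and Hoxa10. After centring the arrays, 2 Hoxa genes were called higher and 1 lower in that comparison.

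Hoxb3, the neighbour of Hoxb4, was the only other Hoxb gene above background. Its group means ± SD were 6.33 ± 0.27 on OP9-GFP, 5.92 ± 0.26 on OP9-DL1, then 6.37 ± 0.11 with Compound E. It had the signs of Hoxb4 with smaller differences, -0.40 on OP9-DL1 (limma adjusted p = 0.0774, not called) and 0.45 with Compound E (adjusted p = 0.0336). The latter call was lost on the log2(value + 32) scale (adjusted p = 0.0524) and without OP9-DL1 replicate 2 or 3 or Compound E replicate 1 or 3, where adjusted p reached 0.163. A further Hoxb3 probe set above background, 1427605_at, was called in neither comparison (-0.17, limma adjusted p = 0.46, and 0.11, adjusted p = 0.572). The Hoxb genes gave 3 called higher with Compound E against OP9-DL1, Hoxb4, Hoxb3 and Hoxb9, of which Hoxb9 was at background, and 1 without OP9-DL1 replicate 2. Of the Hoxc and Hoxd genes none was called on OP9-DL1 against OP9-GFP by limma (0 at an unadjusted p under 0.05).

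**Figure D3:**
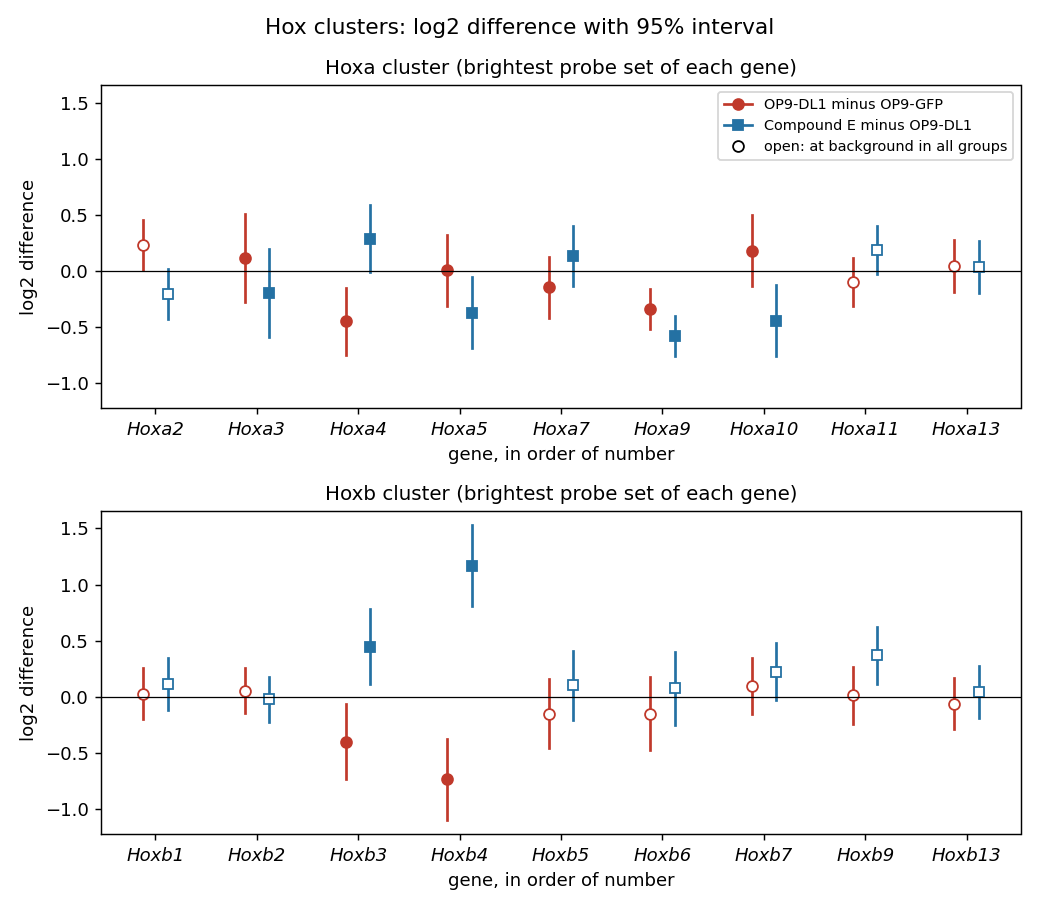
Log2 differences with 95% intervals (y axis) for the measured genes of the Hoxa cluster (upper panel) and Hoxb cluster (lower panel), in order of gene number (x axis). Red circles are OP9-DL1 minus OP9-GFP, blue squares Compound E minus OP9-DL1, and open symbols are genes at background in all groups. Hoxb3 and Hoxb4 lie under 0 on OP9-DL1 and over 0 with Compound E, whereas Hoxa9 lies under 0 in both.

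Several TALE family genes moved with Meis1 in the first 2 comparisons. Of 10 measured, Meis1 included, 5 rose and 0 fell on OP9-DL1 against OP9-GFP (0 lower at an unadjusted p under 0.05, limma), with a median of 0.49. With Compound E against OP9-DL1, 5 fell and 1 rose, with a median of -0.38, and after centring the arrays 2 rose. Meis1 itself is among the 5 in both comparisons. Against OP9-GFP, 2 were called higher with Compound E and 1 lower, where 11.3% and 10.0% of all genes were. The lower one was Meis1, and the others were Pknox2 (0.53, limma adjusted p = 0.0142) and Tgif1 (0.73). Meis2, Pbx4 and Tgif2 were not called there. Pknox2 rose from 4.87 ± 0.21 to 6.43 ± 0.09 (SD, n = 3) and fell by 1.03 with Compound E. Meis2, a close relative of Meis1, was 0.96 higher on OP9-DL1 and 0.70 lower with Compound E than on OP9-DL1 (log2 -0.70). Pbx4 differed by 1.16 and -1.33 in the same comparisons and Tgif2, a repressor of the family, by 0.83 and -1.07. Tgif1, its relative, went from 8.53 ± 0.09 on OP9-DL1 to 9.12 ± 0.16 with Compound E, a rise of 0.60. The Hox partners Pbx2 and Pbx3 were not called in any comparison, with differences between -0.05 and 0.14.

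The relatives of Hlf did not move as one. Nfil3, which represses the sites that PAR factors activate, fell on OP9-DL1 (-0.40 ± 0.08, limma adjusted p = 0.00178) and rose with Compound E (1.17 ± 0.08, adjusted p = 1.25e-08). Dbp, a PAR factor of the circadian clock, was not called between feeders (-0.14) and rose with Compound E (0.83). Tef, the third PAR factor, was 0.39 higher on OP9-DL1 and 0.29 lower with Compound E than on OP9-DL1 (log2 -0.29), a fall that was not called after centring the arrays. A further Tef probe set above background, 1438033_at, was called in neither comparison (0.08, limma adjusted p = 0.803, and -0.33, adjusted p = 0.107). Among 4 genes of this list, Hlf included, 2 rose and 1 fell on OP9-DL1, and 2 rose and 2 fell with Compound E.

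The PR domain relatives of Mecom were as divided. Of 10 measured genes of the family, 2 rose and 3 fell on OP9-DL1, and 3 rose and 3 fell with Compound E, with medians of 0.04 and 0.00. Mecom itself is counted among those that rose on OP9-DL1 and those that fell with Compound E. Of all genes, 15.1% were called higher and 16.0% lower on OP9-DL1, and 23.8% and 21.0% with Compound E. Prdm16, the closest relative of Mecom, was 6.40 ± 0.30 on OP9-GFP, 6.54 ± 0.19 on OP9-DL1, then 5.42 ± 0.08 with Compound E. The difference between feeders was not called (0.14, limma adjusted p = 0.598), and the fall with Compound E was -1.12 (adjusted p = 1.85e-05). Among further Prdm16 probe sets above background, 1440870_at also fell with Compound E (-0.82, adjusted p = 0.00265), while 1429309_at was not called (0.21, adjusted p = 0.363). Prdm1, a factor of terminal differentiation, fell by 0.98 on OP9-DL1 and rose by 1.39 with Compound E. Prdm15 rose by 0.51 and fell by 0.51.

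Regulators that keep Hox genes active changed in small steps. Of 17 genes of the Mll and Cdx group 4 rose and 1 fell on OP9-DL1, with a median of 0.09, and 2 rose and 6 fell with Compound E, with a median of -0.00. The shares of all genes were 15.1% and 16.0% on OP9-DL1, and 23.8% and 21.0% with Compound E. Cdx1, Cdx2 and Cdx4 were at background in all groups but are counted here, and the median with Compound E was the value of Cdx1. The 4 that rose on OP9-DL1 became 2 without any one of OP9-GFP replicates 1, 2 and 3 and OP9-DL1 replicates 1 and 3. The 2 that rose with Compound E became 5 after centring. Psip1, which tethers the Mll complex to chromatin, rose by 0.47 (limma adjusted p = 5.83e-05) and fell by 0.79 (adjusted p = 1.16e-07). Dot1l, the histone H3 methyltransferase on which MLL-driven Hox expression depends, was 0.21 higher on OP9-DL1 and 0.64 lower with Compound E (log2 -0.64). Wdr5, a core subunit of the complex, fell by 0.43 with Compound E. Its difference of 0.14 between feeders (adjusted p = 0.043) was not called under 9 of the alternatives, among them leaving out any 1 of the OP9-GFP or OP9-DL1 arrays, with adjusted p up to 0.159. Brpf1, a subunit of the Kat6a complex, moved the other way (-0.41 and 0.72), and Kmt2a, the Mll gene itself, fell with Compound E (-0.65, adjusted p = 6.16e-06) but was not called between feeders (0.22, adjusted p = 0.0538).

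Polycomb genes, whose products hold Hox clusters silent, changed in both directions. Of 15 measured, 5 rose and 1 fell on OP9-DL1, where 15.1% and 16.0% of all genes did. With Compound E 6 rose and 7 fell, where 23.8% and 21.0% of all genes did. The 6 became 2 without OP9-DL1 replicate 1 or 2 and 3 without OP9-GFP replicate 2. Bmi1, a Polycomb subunit that stem cells need, rose by 0.44 and fell by 0.78, and the ubiquitin ligase Rnf2 rose by 0.44 and fell by 0.50. Pcgf2, a relative of Bmi1, was 0.67 higher and then 0.89 lower (log2 -0.89), while Phc2 ran the other way at -0.40 and 0.76. Ezh2, the histone H3 methyltransferase of the group, fell by 0.47 with Compound E. Its difference of 0.17 between feeders (limma adjusted p = 0.0242) was not called after centring, without an intensity trend, or without OP9-GFP replicate 1 or 2 or any 1 of the OP9-DL1 arrays, where adjusted p reached 0.151.

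Genes known as targets of Hoxa9 and Meis1 split on the ligand feeder and mostly fell with the inhibitor. Of 13 measured, 6 rose and 3 fell on OP9-DL1, and 2 rose and 7 fell with Compound E, with medians of 0.18 and -0.65. Against OP9-GFP, 9 fell with Compound E and limma called 0 higher (0 at an unadjusted p under 0.05). Among all genes, 10.0% were called lower and 11.3% higher there. Sox4 was 9.92 ± 0.15 on OP9-GFP, 11.36 ± 0.05 on OP9-DL1, then 9.64 ± 0.04 with Compound E, a rise of 1.44 (adjusted p = 1.61e-10) and a fall of 1.73 (log2 -1.73, adjusted p = 1.07e-11). Flt3, the receptor of multipotent and lymphoid progenitors, ran the opposite way, from 8.01 ± 0.04 to 6.50 ± 0.17 and back to 7.56 ± 0.04. Its differences were -1.51 on OP9-DL1 and 1.05 with Compound E. Id2, an inhibitor of E proteins, followed Flt3 (-0.81 and 0.91), and the kinase Cdk6 followed Sox4 (0.45 and -1.24), as did the adaptor Lmo2 (0.41 and -0.69).

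Other transcription factors of stem cells moved in the direction of Meis1, Hlf and Mecom more often than against it. Of 24 measured, 15 rose and 3 fell on OP9-DL1, with a median of 0.31, and 2 rose and 18 fell with Compound E, with a median of -0.64. Gata2 rose by 1.82 (limma adjusted p = 7.3e-11) and fell by 2.72 (adjusted p = 4.1e-13), and Gfi1b, also a megakaryocyte and erythroid factor, rose by 1.84 and fell by 2.76. Egr1, an immediate early factor, rose by 1.05 and fell by 1.33. Against OP9-GFP, 13 of the 24 were lower with Compound E, where 10.0% of all genes were. Some of these genes stand in several lists, and all lists were chosen with results of these data known.

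**Figure D4:**
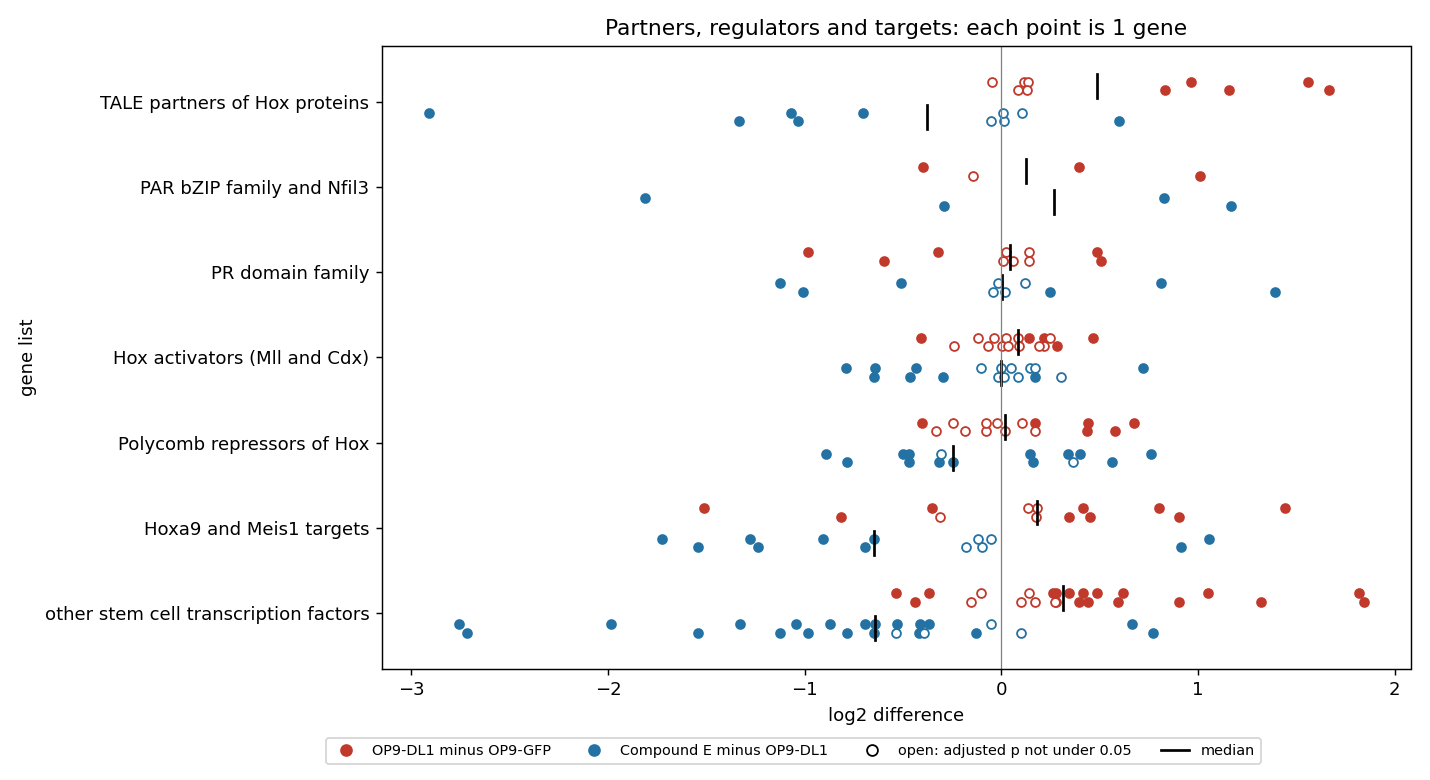
Log2 differences (x axis) for the genes of 7 lists (y axis), in red for OP9-DL1 minus OP9-GFP and in blue for Compound E minus OP9-DL1. Filled points passed an adjusted p of 0.05, open points did not, and black bars are list medians, with Meis1, Hlf and Mecom included in the lists of their families. The medians of other stem cell transcription factors lie at 0.31 and -0.64, while those of the PR domain family lie at 0.04 and 0.00.

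The cells measured were a mixture after 3 days, and marker lists of several cell types moved with the members. All 8 measured LSK surface markers were above background in each group, with Ly6a not analysed here. Kit was 8.94 ± 0.15 on OP9-GFP, 10.22 ± 0.16 on OP9-DL1, then 8.14 ± 0.11 with Compound E, in the order of Meis1. Flt3, also on this list, ran the opposite way (-1.51 and 1.05). Cd34 fell on OP9-DL1 (-0.35) and was not called with Compound E against OP9-DL1 (-0.10). Of the 8, 4 rose and 3 fell on OP9-DL1, and 3 rose and 4 fell with Compound E. Beside these and the marker counts that follow, 15.1% of all genes were called higher and 16.0% lower on OP9-DL1. With Compound E against OP9-DL1 these shares were 23.8% and 21.0%. The summed linear values of this list were 8560 to 9000, 8360 to 8880 and 7850 to 8380 in the 3 groups.

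Megakaryocyte markers, of which Gata2 and Gfi1b are known regulators, rose 9 of 9 on OP9-DL1 and fell 9 of 9 with Compound E. Their summed linear value was 9070 to 9170 on OP9-GFP, 23600 to 23800 on OP9-DL1, then 6500 to 6800 with Compound E, with none at background. Mast cell markers rose 7 of 8 and fell 7 of 8, with sums of 1410 to 1530, 5530 to 5760 and 804 to 823, and Mcpt1 and Mcpt4 were at background except on OP9-DL1. Macrophage markers fell 8 of 8 and rose 8 of 8, the directions of Hoxb4, with sums of 24800 to 25800, 12100 to 12600 and 27900 to 28600 and none at background. Feeder stroma markers rose 13 of 16 and fell 14 of 16, with sums of 14300 to 14400, 24600 to 24900 and 13900 to 14100, while Lum and Dcn were at background in all groups. The part of these cell types in the differences of the members was not tested. In such bulk samples, fewer cells of a type and less RNA per cell cannot be told apart.

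Meis1, Hlf, Mecom and Hoxb4 had group means at least 1 apart, and for these the genes with the most similar values over the 9 arrays were sought. Each gene's values were centred on its own mean, and likeness was the root mean square difference between 2 genes, in log2 units. The values were not scaled, so this distance also depends on the size of a gene's steps. The group means of Mecom spanned 1.01, the least of these genes, and those of Meis1 2.91, the most. Nearest to Meis1 were Trpc6, a cation channel gene (0.153), Il12a, a cytokine subunit gene (0.158), and Pls1, which encodes an actin-bundling protein (0.166). Nearest to Hlf were Hook1 (0.119), Ppic (0.141) and the transcription factor gene Zbtb16 (0.142). Mecom had the closest neighbours, Rcn1 (0.0528), Peg12 (0.0653) and Psma8 (0.0772). For Hoxb4 they were Ap5b1 (0.126), Slc39a3, a zinc transporter gene (0.153), and Tnni2 (0.158). None of the 12 was a member. Among the members, Hlf and Mecom were 0.36 apart, Meis1 and Hlf 0.535, and Meis1 and Mecom 0.819, while Hoxb4 was 0.936 to 1.71 from those 3.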

How the data were processed

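RNA was measured on 9 single-colour oligonucleotide arrays, 3 for each of the 3 groups that the sample titles name. Per the labels' protocols, 25 ng was amplified and labelled with biotin. The deposited table holds log2 values, as far as their range shows. The submitters' processing notes list MAS5 and GCRMA 2.4.1 without their roles, and which of them made the values is not stated in the sources. Array medians lay between 4.78 and 4.94. Arrays have no read depth, and precision is limited by their number.

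Symbols came from the platform annotation, updated through a RefSeq gene table. Of 45101 probe sets 34945 had 1 symbol, 932 had several, 9160 had none and 64 were array controls. The other 45037 were fitted together over all 9 arrays with limma 3.58.1 (lmFit, then eBayes with an intensity trend) in R 4.3.3. No covariate, renormalization or filter was used, and Benjamini-Hochberg adjustment ran over all of them. A gene was counted by its brightest probe set. SDs describe the arrays of a group, while SEs and 95% intervals come from the model. Hoxa5, Hoxa7, Hlf 1434735_at and the dim Mecom probe sets held an identical value on 2 arrays of a group, which lowers their spread. The procedure was tested on simulated data. There, changes were added only to brighter probe sets and only on OP9-DL1, so it does not cover dim probe sets such as those of Hoxa10.

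The members and lists were chosen with earlier results of these data known. All member probe sets are reported. From each list up to 3 genes were named in each of the first 2 comparisons, those with the smallest adjusted p under 0.05 and above background in a group. Hoxb9, Pbx2, Pbx3, Pbx4, Tgif1, Kmt2a and Kit were named after their values were seen. Likeness skipped symbols of unnamed clones. Alternatives were another scale, other normalizations, filters, a variance model without trend, other probe set choices, a 2-fold threshold, fits of 6 arrays, a block for the replicate number, and fits that left out 1 array. For lists and further probe sets they were added after the data were seen.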

Additional observations from a re-analysis of the deposited data

How the results depend on the processing

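Under every alternative that gave single values, Meis1, Hlf, Hoxa9 and Hoxb4 kept direction and call in the comparison of the feeders and in that of Compound E with OP9-DL1, and Meis1, Hlf and Hoxa9 did so against OP9-GFP too. Mecom kept its calls under all but 1 alternative, and lost both calls against OP9-GFP with the mean of its probe sets. Of 507 values of the members' lead probe sets under an alternative, 474 kept direction and call, 7 lost a call, 11 gained one and 15 changed sign without being called. With a 2-fold threshold, 0 members were lower on OP9-DL1 than on OP9-GFP, 3 were lower with Compound E than on OP9-DL1, and 1 was lower with Compound E than on OP9-GFP. Members higher with Compound E than on OP9-GFP numbered 1 (Hoxb4) after centring and 1 with only the 6 arrays compared, and 0 to 1 when an array was left out.

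The values that changed sign were near 0. Between feeders, Hoxa5 became -0.030 with quantile normalization and -0.033 with centring, and ran from -0.035 to 0.092 when an array was left out. Hoxa3 ran from -0.051 to 0.42 when an array was left out, and Hoxa10 became -0.078 with the mean of its probe sets. Against OP9-GFP with Compound E, Hoxa3 became 0.014 with centring, and Hoxa7 became 0.097 with quantile normalization, 0.081 with centring, and ran from -0.11 to 0.071 when an array was left out. The cause was not tested.

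Centring moved the median difference of all genes by -0.04, 0.13 and 0.09 in the 3 comparisons. The share of called genes that were higher went from 48.6% to 41.9% between feeders, from 53.1% to 73.4% with Compound E against OP9-DL1, and from 53% to 77.7% against OP9-GFP. With the replicate number as a block, the counts were 3 higher and 2 lower, 1 and 5, and 0 and 4, and no member call changed. Correlations of the deviations of arrays with the same number ran from -0.09 to 0.10, so the numbers were not taken to pair samples, and 4 of 9 arrays correlated best with one of their own number. Dim probe sets limit what can be said of Hoxa10, the second probe sets of Hoxb4 and Hoxa10, and most other Hox genes.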

Other observations

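Hoxa9, by its lead probe set only, was not alone in being lowest with Compound E and not called higher on OP9-DL1. The same held for several genes of the lists above, Prdm16 and Kmt2a among them. Of these, Mycn, Hmga2 and Bcl2 are described here and were named after their values were seen. Mycn, a Myc family factor, was 9.25 ± 0.11 on OP9-GFP, 8.88 ± 0.04 on OP9-DL1, then 7.89 ± 0.04 with Compound E (SD, n = 3). It fell by 0.37 between feeders (limma adjusted p = 0.00104) and by 0.99 with Compound E (adjusted p = 1.97e-08), a descent in the 2 steps also seen for the lead probe set of Hoxa9. Hmga2, a chromatin protein of fetal stem cells, fell by 0.87 with Compound E (adjusted p = 2.42e-07) and was not called between feeders (-0.15, adjusted p = 0.2). Bcl2, which blocks apoptosis, fell by 1.28 (adjusted p = 8.72e-09) and was not called between feeders (0.18, adjusted p = 0.173), although every OP9-DL1 array lay above every OP9-GFP array.

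Markers of 4 further lineages were measured. The shares of all genes called higher and lower were 15.1% and 16.0% on OP9-DL1, and 23.8% and 21.0% with Compound E. Erythroid markers gave 4 of 7 higher on OP9-DL1 and 4 of 7 lower with Compound E, with Hba-a1 and Alas2 at background in all groups. T cell markers gave 5 of 6 higher and 5 of 6 lower, of which 4 in each direction were above background in a group. Among probe sets above the median brightness both counts were 1, and Cd3e and Ptcra were at background in all groups. Granulocyte markers were divided, 3 of 7 higher and 4 lower on OP9-DL1. B cell markers gave 1 of 5 higher on OP9-DL1, with Cd79a and Pax5 at background in all groups.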
